A study of Mus musculus with 4 samples.

Results

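The genes described here encode the transporters that carry inorganic ions across cell membranes and belong to 8 solute carrier families. They are Slc4 (bicarbonate), Slc8 and Slc24 (calcium against sodium), Slc9 (protons against sodium), Slc12 (chloride together with sodium or potassium), Slc20 and Slc34 (phosphate) and Slc26 (chloride, bicarbonate, sulfate and other anions). Members were chosen by symbol alone, as every gene of the GENCODE vM21 annotation named with one of these family prefixes, the letter a and a number, which gave 52 of the 55487 genes in the deposited tables. The families held 10 (Slc4), 3 (Slc8), 9 (Slc9), 9 (Slc12), 2 (Slc20), 5 (Slc24), 11 (Slc26) and 3 (Slc34) genes.

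RNA was read from intestinal stem cells of untreated Lgr5-EGFP-IRES-creERT2 mice, 6 to 12 weeks old, in which the Lgr5 gene drives a green reporter and an inducible recombinase. Small-intestinal stem cells (SISC) were gated as Lgr5-EGFP+ and CD24-, and large-intestinal stem cells (LISC) as Lgr5-EGFP+ with no CD24 gate named. Both groups carry the reporter allele, and each has 2 libraries. The labels do not tie libraries to separate animals, so a p-value here measures the spread between these libraries, which may be technical.

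The intestinal epithelium takes up sodium, chloride and phosphate from the gut and secretes chloride, bicarbonate and fluid into it. Cells of the crypt, where stem cells sit, are known for secretion, fed by chloride entry through the cotransporter encoded by Slc12a2 on the basolateral side. Differentiated cells of the villus and the colonic surface absorb salt by pairing an apical sodium/proton exchanger of the Slc9 family with an apical chloride/bicarbonate exchanger of the Slc26 family.

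Total expected counts per library ran from 12795434 to 27227715. In the replicate 1 libraries an rRNA gene took 24.1% (SISC) and 28.5% (LISC) of the counts, and in the replicate 2 libraries 0.0917% and 0.0997%. The deposited TPM of the 52 transporter genes summed to 290.9 and 259 in the replicate 1 libraries and to 444 and 524 in the replicate 2 libraries. Lgr5 was read at 89.7 to 173 CPM (counts relative to the library size, scaled with TMM factors) in the 4 libraries. The 5 stem cell markers, Lgr5 among them, summed to 968 and 1225 CPM in SISC, against 676 and 452 CPM in LISC. Of these, Smoc2, Rgmb and Axin2 were higher in both SISC libraries (log2 −1.40, −0.72 and −1.41), none was called by edgeR, and 2 had an unadjusted p below 0.05. Markers of other cell types were present in the sorted cells: goblet cell markers summed to 3723 and 6813 CPM in LISC and 1875 and 320 CPM in SISC, and Paneth cell markers to 8136 and 1276 CPM in SISC, against 49.4 and 13.9 CPM in LISC. Colonocyte markers summed to 390 and 1439 CPM in LISC and 112 and 51.8 CPM in SISC. All 4 tuft cell markers were higher in both LISC libraries, with sums of 68.1 and 107 CPM there and 18.8 and 4.12 CPM in SISC. The part of these cells in the differences between groups was not tested. In such bulk libraries, fewer cells of a type and less RNA per cell cannot be told apart.

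Of the 52 transporter genes, 29 had enough counts to be tested and 23 did not. The SISC libraries held more RNA of the bicarbonate transporter gene Slc4a5, and the LISC libraries more of the calcium exchanger genes Slc8a1 and Slc24a3. These 3 passed edgeR's quasi-likelihood test at an adjusted p below 0.05 (Benjamini-Hochberg over all genes), 2 of them with LISC as the higher group and 1 with SISC. The same call was made for 2.20% of the 14165 genes in the fit, 1.45% toward LISC and 0.741% toward SISC. Without LISC replicate 2, none of the transporter genes was called toward LISC. The other 26 tested transporter genes missed the threshold. At an unadjusted p below 0.05 there were 13 of the 29, 11 with higher values in LISC and 2 with higher values in SISC, where 13.4% of all tested genes reached that level. In 14 of the 29 both LISC libraries lay above both SISC libraries, and in 4 both SISC libraries lay above, against 21.9% and 18.4% of all tested genes (40.3% in either direction). The median log2 difference (LISC minus SISC) of the 29 was 0.50, and that of all tested genes −0.02. All 3 called genes passed the filter on low counts only through the group in which they were high. So did Slc4a8, Slc9a9, Slc26a1 and Slc34a1, with higher values in LISC, and Slc34a2, with higher values in SISC. The counts and the median of the transporter genes above are therefore in part set by the filter. DESeq2 called more of the transporter genes, 9 higher in LISC and 2 higher in SISC, beside 4.61% and 2.31% (6.92% in either direction) of the genes it gave an adjusted p. With no filter on low counts, edgeR called 10 and 2, beside 3.92% and 1.94% (5.86%) of all genes, and with a term for replicate number 8 and 2, beside 7.17% and 3.70% (10.9%).

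**Figure D1:**
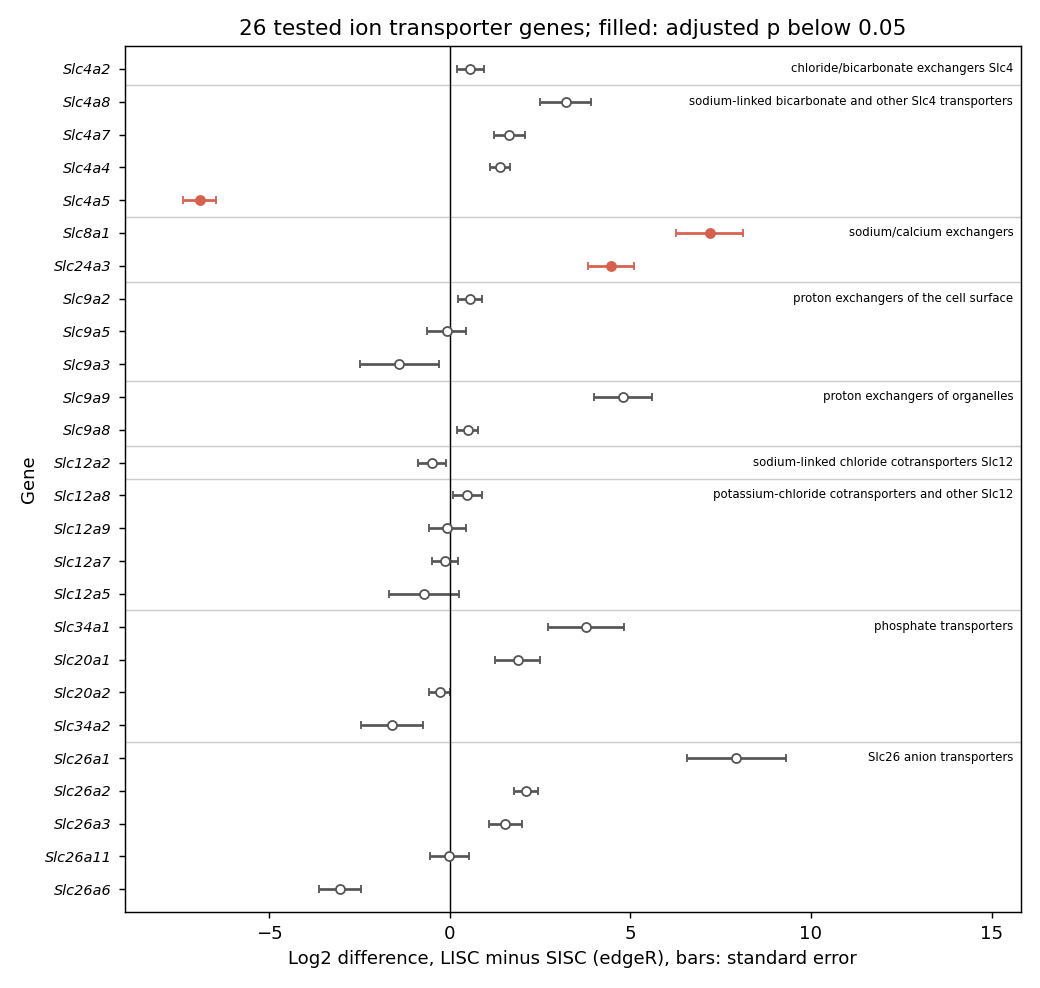
Log2 difference between LISC and SISC (horizontal axis, LISC minus SISC, edgeR) for 26 of the 29 tested transporter genes (vertical axis), grouped by what they carry, with bars of 1 standard error. Filled points are the 3 genes with an adjusted p below 0.05: Slc4a5 at −6.92, Slc8a1 at 7.19 and Slc24a3 at 4.47. The point of Slc26a1, with 0 counts in SISC, depends on the prior count of the fit.

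Among the Slc4 bicarbonate transporters, Slc4a5 encodes an electrogenic sodium bicarbonate cotransporter. It lies on chromosome 6, 83219828 to 83304945, plus strand (GRCm38). It was read at 15.7 and 15.4 CPM in SISC replicates 1 and 2 and at 0.0927 and 0.137 CPM in LISC replicates 1 and 2. The groups lay far apart and the SISC libraries were nearly equal. The gene passed the filter on low counts only through SISC, so that its direction is in part set by the filter. The LISC values rest on 1 and 4 counts against 216 and 494 counts in SISC, and the log2 difference was −6.92 ± 0.45 (SE; edgeR adjusted p = 0.0155). As a ratio of pooled counts, Slc4a5 was 124-fold higher in SISC, with an exact 95% interval of 52.8 to 382 that covers counting error only. All 5 Paneth cell markers were also higher in both SISC libraries, with the sums given above, and their part in the result was not tested. Of the 7 small-intestinal enterocyte markers, 6 were higher in both SISC libraries and summed to 78.6 and 62.4 CPM there, against 2.04 and 4.26 CPM in LISC, with Apoa4 at 0 in both LISC libraries. The seventh, Fabp2, was read at 42.9 and 90.1 CPM in SISC, against 51.2 and 131 CPM in LISC. The part of enterocytes was likewise not tested.

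The closely related sodium bicarbonate cotransporter genes went the other way without passing the threshold. Slc4a4, the electrogenic form that loads bicarbonate at the basolateral side of intestinal and pancreatic duct cells, was read at 41.8 and 48.1 CPM in SISC, against 110 and 126 CPM in LISC. Its log2 difference was 1.39 ± 0.27 (edgeR adjusted p = 0.0903), with the same value of 1.39 within replicate 1 and within replicate 2. Slc4a7, an electroneutral form, was read at 29.2 and 28.9 CPM in SISC, against 58.0 and 124 CPM in LISC, where replicate 2 was the higher (log2 1.64 ± 0.43, edgeR adjusted p = 0.167). Slc4a8, a sodium-driven chloride/bicarbonate exchanger, was low in every library, at 0.291 and 0.219 CPM in SISC, against 2.78 and 1.96 CPM in LISC (log2 3.21 ± 0.71, edgeR adjusted p = 0.122). Slc4a8 passed the filter on low counts only through LISC, so that its direction is in part set by the filter. The LISC libraries were above the SISC libraries for each of these 3 genes, and DESeq2 called all 3.

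Slc4a2, a sodium-independent chloride/bicarbonate exchanger found in many epithelia, was the most abundant Slc4 gene by TPM in every library. It was read at 95.5 and 56.0 CPM in SISC, against 129 and 95.5 CPM in LISC, and the groups met at 95.5 CPM (log2 0.57 ± 0.38, edgeR adjusted p = 0.722). The red cell exchanger gene Slc4a1 and the neuronal gene Slc4a10 had 0 counts in all 4 libraries, and Slc4a3, Slc4a9 and Slc4a11 had at most 6 counts in any library. The 3 and 1 Slc4 genes that DESeq2 called higher in LISC and SISC were all sodium-linked forms, as were 4 of the 5 Slc4 genes tested by edgeR. DESeq2 called 4.61% and 2.31% of all genes in these directions.

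Calcium is moved out of cells against sodium by the Slc8 exchangers, and together with potassium against sodium by the Slc24 exchangers. Of these 8 genes 2 were tested, and both passed the filter on low counts through their LISC libraries, so that their direction is in part set by the filter. Both were called, beside the 1.45% of all tested genes called toward LISC. Slc8a1, the exchanger best known from heart muscle (chromosome 17, 81373105 to 81738377, minus strand), was read at 0 and 0.0625 CPM in SISC, against 5.19 and 8.46 CPM in LISC. These values come from 0 and 2 counts in SISC and 56 and 246 counts in LISC, and SISC was at or near the limit of detection. The log2 difference was 7.19 ± 0.93 (edgeR adjusted p = 0.0403), and the ratio of pooled counts was 173, with an exact 95% interval of 47.5 to 1437. Without LISC replicate 2 the difference was 6.82 and no longer passed (edgeR adjusted p = 0.0834).

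Slc24a3, a potassium-dependent exchanger (chromosome 2, 145167754 to 145642166, plus strand), was read at 0.146 and 0.281 CPM in SISC, against 4.91 and 5.22 CPM in LISC, from 2, 9, 53 and 152 counts. The 2 LISC libraries were close to each other and far above SISC, and the log2 difference came to 4.47 ± 0.64 (edgeR adjusted p = 0.0474). Its adjusted p lay just under the threshold, and leaving out any 1 of the 4 libraries took it above (0.0563 to 0.176), with log2 differences of 4.14 to 5.03. The other 6 exchanger genes of these families had at most 1 count in any library. By TPM the pair was scarce in LISC, at 0.44 and 1.36 TPM for Slc8a1 and 1.18 and 1.85 TPM for Slc24a3. Both genes are also known from muscle and other cells outside the epithelium. Of the 6 stromal and endothelial markers, Vim was read at 4.87 and 0.750 CPM in SISC, against 0.834 and 0.756 CPM in LISC. The other 5 had too few counts to be tested and summed to 0.0728 and 0.469 CPM in SISC, against 0.463 and 1.07 CPM in LISC. Among them, Col1a1 (SISC 0.0728 and 0 CPM, LISC 0.0927 and 0.344 CPM) and Col3a1 (SISC 0 and 0 CPM, LISC 0.185 and 0.241 CPM) were higher in both LISC libraries. Immune markers summed to 6.84 and 5.25 CPM in SISC, against 12.7 and 40.4 CPM in LISC. Of these 7 markers, 2 were higher in both LISC libraries, C1qa with 7.41 and 32.1 CPM there and the leukocyte gene Ptprc with 1.30 and 4.78 CPM. Itgam and Lyz2 were not, and Lyz2 was at 0 in both. The part of immune and stromal cells in the result was not tested.

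The sequences before the start sites of the 3 called genes are shown because these are the genes called in the comparison. They are the 250 bases before the RefSeq start (GRCm38.p6), 5′ to 3′ on the gene's strand, and capitals mark matches on either strand to AGATAA and to its variant with T as the first letter, TGATAA (both GATA factors), to TTTAT (Cdx factors) and to CACGTG (an E-box). Slc24a3 has 2 starts in the table, of which the more upstream is shown. The other held no match. The RefSeq start of Slc4a5 lies inside the GENCODE gene, downstream of its first base. Other annotated Slc8a1 transcripts, among them the longest with 18464 bases, start further downstream than the window shown. Which start was used was not tested.
Slc4a5, chr6:83237125-83237374, plus strand: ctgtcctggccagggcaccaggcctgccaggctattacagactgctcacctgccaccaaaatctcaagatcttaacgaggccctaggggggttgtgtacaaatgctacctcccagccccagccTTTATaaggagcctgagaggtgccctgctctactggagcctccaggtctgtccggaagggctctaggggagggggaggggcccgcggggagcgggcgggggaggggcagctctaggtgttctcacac
Slc8a1, chr17:81738388-81738637, minus strand: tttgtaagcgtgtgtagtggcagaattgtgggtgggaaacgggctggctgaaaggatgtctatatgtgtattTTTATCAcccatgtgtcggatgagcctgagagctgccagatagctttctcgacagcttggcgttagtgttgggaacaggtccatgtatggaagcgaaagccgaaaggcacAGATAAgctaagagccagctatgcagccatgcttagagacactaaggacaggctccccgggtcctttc
Slc24a3, chr2:145167525-145167774, plus strand: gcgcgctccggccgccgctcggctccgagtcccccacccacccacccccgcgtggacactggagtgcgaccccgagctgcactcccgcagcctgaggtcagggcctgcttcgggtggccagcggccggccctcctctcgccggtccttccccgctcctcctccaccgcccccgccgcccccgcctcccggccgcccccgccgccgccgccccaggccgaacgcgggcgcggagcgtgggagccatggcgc

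The 3 windows differed in the matches they held. The Slc4a5 window held 1 TTTAT match, with its first base at −127, where −1 is the base just before the start, and no match to the GATA sequences. The Slc8a1 window held AGATAA at −68 and TGATAA at −177, the second overlapping a TTTAT match at −178. The Slc24a3 window held none of the 4 sequences and was 80.8% G or C with 35 CpG dinucleotides, where the median over the 32851 promoter windows was 52.4% and 6. At least 1 of the pair of GATA sequences was found in 16.6% of all windows, TTTAT in 37.3% and CACGTG in 6.02%. Promoter windows were available for 39 of the 52 transporter genes, 50 windows in all, of which 12 held a GATA sequence (24%), 21 held TTTAT (42%) and 7 held CACGTG (14%). A match is a description of the letters and not a binding site.

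The Slc26 family, which carries anions, had no call by edgeR among its 5 tested genes, and 4 of the 5 had an unadjusted p below 0.05, as did 13.4% of all tested genes. Of the 4, 3 had higher values in LISC, among them Slc26a1, which passed the filter on low counts only through LISC, and 1 had higher values in SISC. DESeq2 called 2 of the former and the 1 of the latter. Slc26a2, the sulfate transporter that supplies sulfate for proteoglycans and mucins, was read at 35.9 and 36.2 CPM in SISC, against 123 and 190 CPM in LISC. Both LISC libraries were high and the SISC libraries almost equal, and the log2 difference of 2.12 ± 0.34 just missed the threshold (edgeR adjusted p = 0.0586). It was 1.77 and 2.39 within replicates 1 and 2. With the minimum count of the filter raised to 50 it passed. Slc26a1, a sulfate and oxalate transporter, had 0 counts in both SISC libraries and 1.11 and 1.72 CPM in LISC, from 12 and 50 counts. Against the limit of 3 counts per library, its level in LISC was at least 9.07-fold higher (edgeR adjusted p = 0.103). It overlaps Idua on the opposite strand, and whether the counting used strand is not stated. Without strand, reads of the 2 genes on the shared stretch cannot be told apart.

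Slc26a3 encodes the apical chloride/bicarbonate exchanger of the colon, whose loss causes chloride diarrhoea. It was read at 17.4 and 16.1 CPM in SISC, against 28.6 and 68.5 CPM in LISC (log2 1.54 ± 0.46, edgeR adjusted p = 0.224). The LISC libraries were both above SISC, and replicate 2 was the higher. Of the 7 colonocyte markers 6 were higher in both LISC libraries, Car1 and Aqp8 were at 0 in both SISC libraries, and the sum was 390 CPM in LISC replicate 1 and 1439 CPM in LISC replicate 2. Their part in the result was not tested. Slc26a6, the apical anion exchanger of the small intestine that also secretes oxalate, was read at 9.02 and 6.31 CPM in SISC, against 1.30 and 0.619 CPM in LISC, from 124, 202, 14 and 18 counts. The groups did not overlap, and the log2 difference was −3.04 ± 0.59 (edgeR adjusted p = 0.0912) and −2.80 and −3.35 within replicates 1 and 2. DESeq2 called it (adjusted p = 0.000197), as did limma-trend on TPM.

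Reads assigned to Slc26a6 fitted short transcripts. RSEM gives each gene a length, its annotated transcripts weighted by their estimated abundance, and for Slc26a6 this was 860 and 920 bases in SISC and 1085 and 1107 bases in LISC. Of its 10 annotated transcripts only 2 are shorter than 860 bases, at 349 and 418 bases, and the longest coding one has 4362 bases. The 418-base transcript lies at 108912410 to 108913049 on chromosome 9, whereas most of the others end at 108862143. The TPM of Slc26a6, 11.1 and 10.04 in SISC, is high beside its CPM for this reason, and it ranked the gene sixth among the 52 by mean TPM in SISC and 23 in LISC. This length was looked at after its values were seen. Slc26a11 was read at 3.54 to 7.78 CPM with overlapping groups, and the pendrin gene Slc26a4 had 1 count in all. Slc26a5, Slc26a7 and Slc26a9 had 0 counts in every library.

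**Figure D2:**
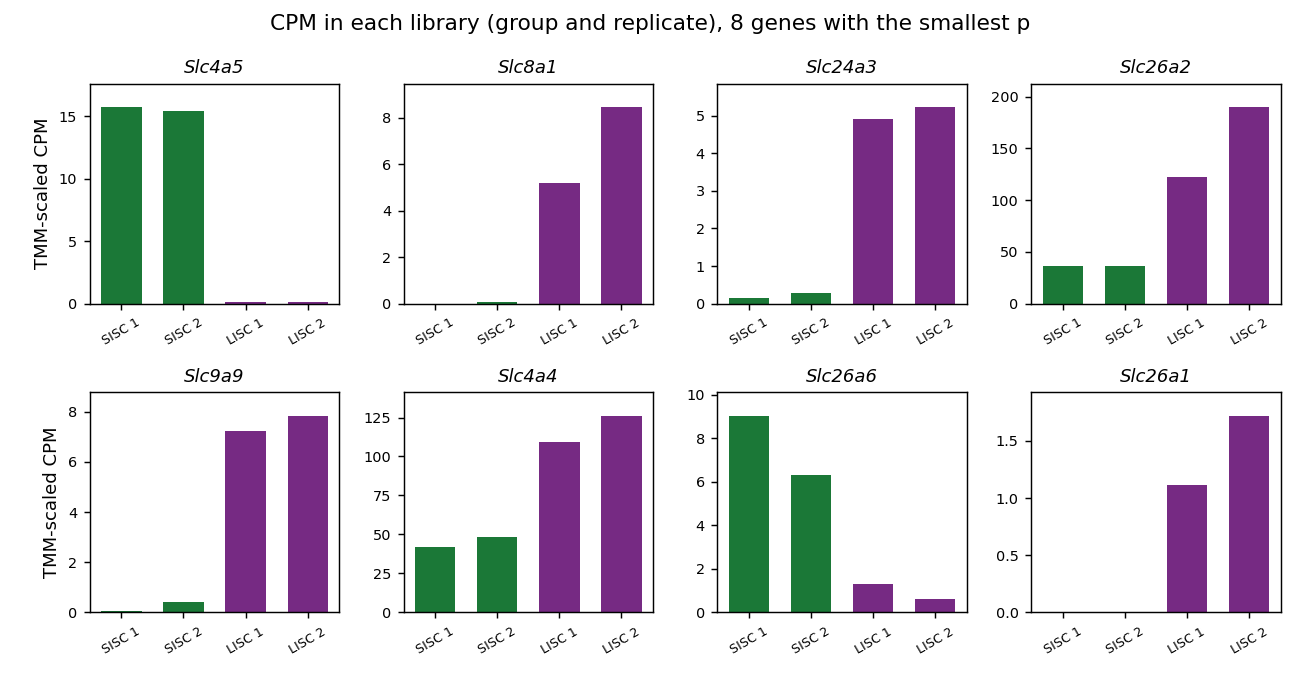
TMM-scaled CPM (vertical axes, each starting at 0) in each of the 4 libraries (horizontal axes, SISC in green, LISC in purple) for the 8 transporter genes with the smallest p. Slc4a5 and Slc26a6 were higher in both SISC libraries and the other 6 in both LISC libraries, and only Slc4a5, Slc8a1 and Slc24a3 passed the threshold.

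The Slc9 genes encode sodium/proton exchangers, of the cell surface or of endosomes and the Golgi. None of the 7 tested was called by edgeR, and 1, Slc9a9, had an unadjusted p below 0.05 and was called by DESeq2. That p was reached by 13.4% of all tested genes, and DESeq2 called 4.61% of all genes toward LISC. Slc9a9, an exchanger of endosomes, was read at 0.0728 and 0.406 CPM in SISC, against 7.23 and 7.84 CPM in LISC, from 1, 13, 78 and 228 counts. It passed the filter on low counts only through LISC, so that its direction is in part set by the filter. The LISC libraries were alike and the SISC libraries near 0, and the log2 difference came to 4.80 ± 0.81 (edgeR adjusted p = 0.0654). Within replicates 1 and 2 it was 6.63 and 4.27. It passed without SISC replicate 1 and without SISC replicate 2. The part of the immune markers given beside Slc8a1 was not tested.

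Of the 4 tested exchangers of the cell surface, none had an unadjusted p below 0.05. Slc9a2, an apical exchanger, was read at 18.04 and 21.2 CPM in SISC, against 21.3 and 36.3 CPM in LISC (log2 0.56 ± 0.34, edgeR adjusted p = 0.671). Slc9a8, an exchanger of the Golgi that also reaches the apical membrane, was read at 43.1 and 37.5 CPM in SISC, against 67.3 and 47.0 CPM in LISC (log2 0.50 ± 0.29, edgeR adjusted p = 0.642). Slc9a3, the main apical exchanger of absorbing enterocytes, was scarce in these sorted cells. It was read at 3.06 and 0.968 CPM in SISC, against 0.185 and 1.24 CPM in LISC, with opposite signs within replicates 1 and 2 (log2 −4.04 and 0.35). Slc9a5 lay between 6.53 and 17.2 CPM in all libraries, and Slc9a4 and Slc9a7 had at most 4 counts in any.

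Within a library, TPM allows levels of different genes to be compared, since it is scaled by length. Slc12a2, the sodium-potassium-chloride cotransporter that feeds chloride secretion, was the most abundant of the 52 genes in every library, at 129 and 273 TPM in SISC and 95.2 and 186 TPM in LISC. It alone made up 44.4% and 61.5% of the summed TPM of the 52 genes in SISC and 36.8% and 35.4% in LISC. On the CPM scale it was read at 1169 and 1471 in SISC and 960 and 922 in LISC. Both SISC libraries were above both LISC libraries, but the log2 difference of −0.49 ± 0.40 did not pass (edgeR adjusted p = 0.818) and stayed between −0.65 and −0.33 in the alternatives tried. The sodium-chloride and kidney forms Slc12a3 and Slc12a1 had at most 5 counts and 0 counts in any library.

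By mean TPM, the genes below Slc12a2 in SISC included Slc12a7 (25.3 ± 4.02 TPM, SD, n = 2), Slc4a2 (21.9 ± 1.98) and Slc12a8 (14.8 ± 1.24). The values of Slc12a7 and Slc4a2 overlapped, and both lay above those of Slc12a8. In LISC it was followed by Slc4a2 (30.9 ± 6.67 TPM), Slc20a1 (28.7 ± 28.0), Slc12a8 (23.3 ± 16.0), Slc12a7 (21.7 ± 4.17), Slc26a2 (21.0 ± 15.3) and Slc26a3 (19.4 ± 18.2). The spread of these means was too wide for a full order. Within each LISC library, Slc4a2 (26.15 and 35.58 TPM in replicates 1 and 2) lay above Slc12a7 (18.7 and 24.6). It also lay above Slc12a8 (11.94 and 34.6) and Slc26a2 (10.17 and 31.85). Slc20a1 (8.94 and 48.53) was below Slc4a2 in replicate 1 and above it in replicate 2. In all, 16 of the 52 genes had a mean of at least 5 TPM in a group, and 29 were below 1 TPM in both.

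**Figure D3:**
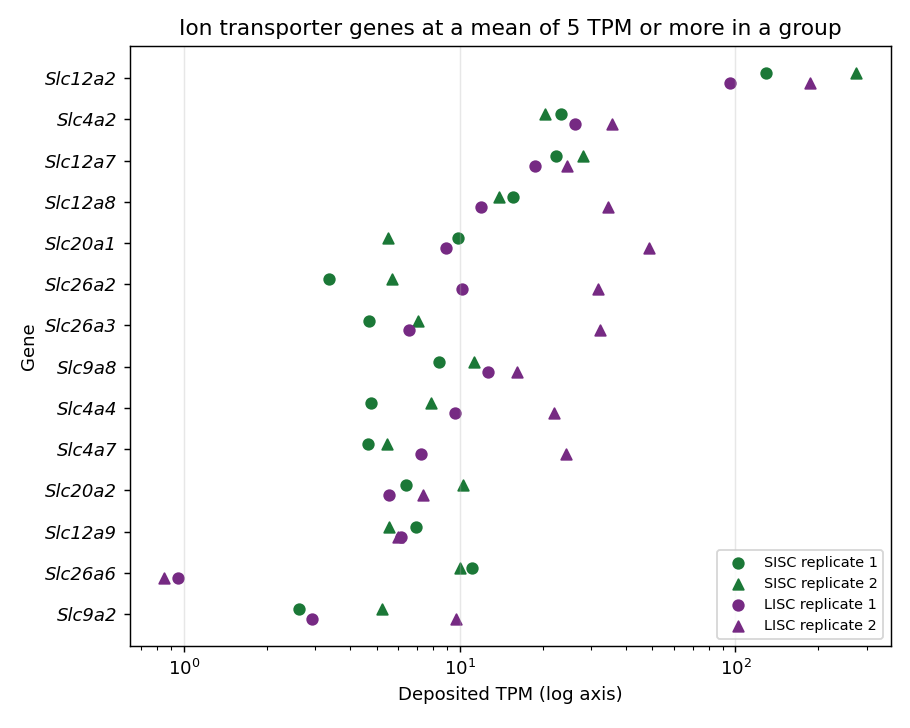
Deposited TPM (horizontal axis, log scale) in each library for 14 of the 16 transporter genes (vertical axis) with a mean of at least 5 TPM in a group, SISC in green and LISC in purple, circles for replicate 1 and triangles for replicate 2. Slc12a2 stands above the other 13 in every library, and Slc26a6 is the one gene near 1 TPM in both LISC libraries.

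Slc12a7, a potassium-chloride cotransporter of a kind that lets chloride leave the cell and regulates its volume, showed no difference between the groups beyond the spread of the libraries. It was read at 135 and 96.9 CPM in SISC, against 127 and 85.1 CPM in LISC (log2 −0.13 ± 0.35, edgeR adjusted p = 0.996). Slc12a8 was read at 54.1 and 28.6 CPM in SISC, against 47.4 and 68.4 CPM in LISC, and Slc12a9 at 29.4 and 14.1 CPM and at 27.7 and 14.0 CPM. The groups overlapped for both (log2 0.49 ± 0.41 and −0.06 ± 0.51). The neuronal cotransporter gene Slc12a5 had 7 to 15 counts a library and Slc12a4 at most 6. None of the 6 tested Slc12 genes was called by edgeR or DESeq2, and 0 of them had an unadjusted p below 0.05.

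**Figure D4:**
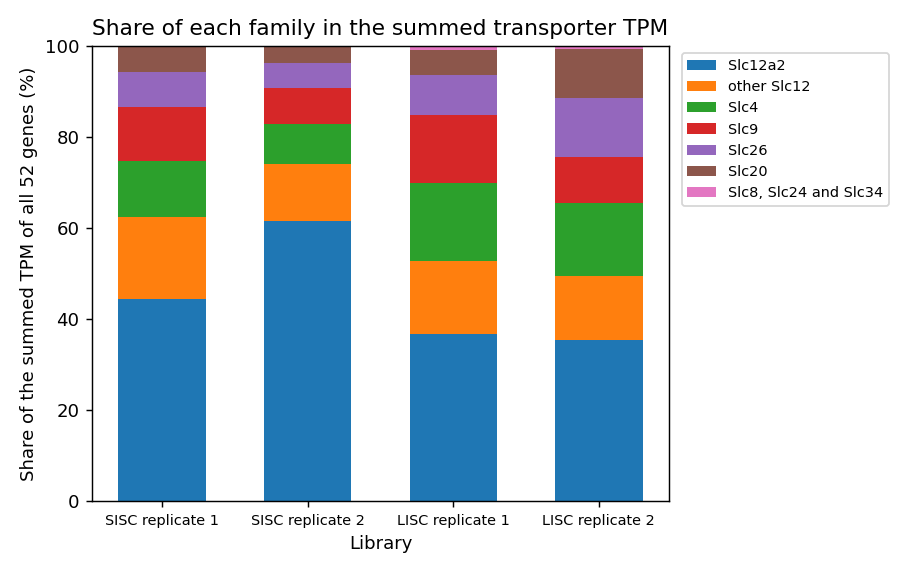
Share of each family (stacked, percent of the summed TPM of the 52 genes, vertical axis) in each of the 4 libraries (horizontal axis), with Slc12a2 apart from the other Slc12 genes. Slc12a2 took 35.4% to 61.5%, and the Slc8, Slc24 and Slc34 genes together took at most 0.808%.

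Of the phosphate transporters, the Slc20 genes serve most cells and the Slc34 genes take up phosphate at the apical side of gut and kidney. Slc20a1 was read at 26.8 and 10.9 CPM in SISC, against 41.1 and 97.0 CPM in LISC. LISC replicate 2 stood well above the other 3 libraries, and the log2 difference of 1.88 ± 0.63 (edgeR adjusted p = 0.280) was 0.62 within replicate 1 and 3.15 within replicate 2. As with Slc26a3, that library also had the highest sum of colonocyte markers, whose part was not tested. Slc20a2 was read at 29.98 and 29.5 CPM in SISC, against 29.6 and 19.5 CPM in LISC (log2 −0.28 ± 0.29, edgeR adjusted p = 0.899). Slc34a2, the form of the small-intestinal brush border, was scarce, at 1.16 and 0.562 CPM in SISC, against 0.278 and 0.275 CPM in LISC (log2 −1.60 ± 0.86, edgeR adjusted p = 0.598). Slc34a2 passed the filter on low counts only through SISC, so that its direction is in part set by the filter. Slc34a1, best known from kidney, had 1 count in each SISC library and 8 and 20 counts in LISC, a ratio of pooled counts of 16.1 with an exact 95% interval of 4.05 to 139 (edgeR adjusted p = 0.189). Slc34a1 passed the filter on low counts only through LISC. Slc34a3 had 2 counts in all. No phosphate transporter gene was called by edgeR, 2 (Slc20a1 and Slc34a1) had an unadjusted p below 0.05, and DESeq2 called 1, Slc20a1, higher in LISC. Beside these stand 13.4% of all tested genes at that p and 4.61% of all genes called toward LISC by DESeq2.

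Genes that regulate or power these transporters were followed in 2 lists, chosen by their known function. Of 31 regulators and partners in the tables (32 were listed), 26 were tested and none was called by edgeR, with 4 higher in LISC and 1 higher in SISC at an unadjusted p below 0.05 and a median log2 difference of 0.17. Of 21 pump genes 7 were tested and none was called, with 1 at an unadjusted p below 0.05 and a median of 0.16. Over both lists DESeq2 called 3 genes, Slc9a3r2, Sgk1 and Fxyd3, with LISC higher and 1, Prkg2, with SISC higher. Of all tested genes, 13.4% had an unadjusted p below 0.05. DESeq2 called 4.61% of all genes toward LISC and 2.31% toward SISC. Atp1b1, a subunit of the sodium pump that builds the gradient the sodium-linked transporters use, was read at 568 and 834 CPM in SISC, against 804 and 889 CPM in LISC (log2 0.27 ± 0.41). Other pump genes with high TPM were Atp1b3, at 41.3 to 64.5 CPM, and Fxyd3, a pump modulator read at 20.8 and 22.2 CPM in SISC, against 45.1 and 85.9 CPM in LISC (edgeR adjusted p = 0.139).

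Among the regulators with the highest TPM, Gucy2c, the guanylin receptor that turns on chloride secretion, was read at 169 and 175 CPM in SISC, against 221 and 262 CPM in LISC (edgeR adjusted p = 0.671). Its ligand gene Guca2a was read at 76.4 and 15.4 CPM in SISC, against 79.4 and 236 CPM in LISC (log2 1.79 ± 0.92). Ezr, which links apical exchangers to actin, was at 144 to 218 CPM, and Chp1, a subunit that Slc9 exchangers need, at 106 to 165 CPM. The gene with the smallest p of both lists, named after its values were seen, was Prkg2, the cGMP-dependent kinase that acts below Gucy2c. It was read at 32.8 and 35.7 CPM in SISC, against 13.6 and 15.3 CPM in LISC (log2 −1.24 ± 0.23, edgeR adjusted p = 0.0856). Sgk1, a kinase that raises sodium transport, was read at 20.1 and 34.8 CPM in SISC, against 75.1 and 78.9 CPM in LISC (log2 1.49 ± 0.35, edgeR adjusted p = 0.137). Slc9a3r2, a scaffold for the apical exchanger encoded by Slc9a3, was read at 1.31 and 1.03 CPM in SISC, against 4.45 and 6.29 CPM in LISC (log2 2.20 ± 0.51, edgeR adjusted p = 0.132). The other 2 regulators with an unadjusted p below 0.05, both with higher values in LISC, were Slc8b1, a sodium/calcium exchanger of mitochondria (log2 1.56 ± 0.40, edgeR adjusted p = 0.164), and Ahcyl2 (log2 0.92 ± 0.33, edgeR adjusted p = 0.317).

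The length that RSEM assigned to a gene showed whether its reads fitted the same transcripts in each library. Of 18 transporter genes with at least 50 counts in all 4 libraries, the length was longer in both LISC libraries for 6, longer in both SISC libraries for 2 and overlapping for 10. The largest value of a gene exceeded its smallest by a median of 12.0%. Slc20a1 had 2176 and 2510 bases in SISC and 3089 and 2726 bases in LISC, where its longest coding transcript has 3316. Slc4a7 differed by replicate number instead, at 4605 and 5202 bases in the replicate 1 libraries and 6426 and 6657 bases in the replicate 2 libraries. These lengths are a description and were not tested. The share of all genes whose lengths separate the groups was not taken. The counts above therefore do not show a trait of the transporter genes.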

How the data were processed

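RNA of 4 libraries, 2 of SISC and 2 of LISC, was selected by poly(A) and made into directional libraries, per the labels' protocols. Titles gave the group and replicate number of each sample. The submitters' processing notes list STAR 2.7.2b and RSEM 1.2.31, with GRCm38 (mm10) as build. How reads were trimmed, which annotation release was used and whether counting used strand are not stated there. The authors deposited RSEM expected counts, which divide reads that fit several genes, and TPM values, which are scaled by effective length. Gene length and the posterior spread of counts were read from the same deposited tables. A symbol was found in GENCODE vM21 for 55227 of 55487 genes.

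Rounded expected counts entered edgeR 4.0.16 under R 4.3.3 (glmQLFTest, the quasi-likelihood test, with group as the only term, TMM, filterByExpr with a minimum count of 10, two-sided), with Benjamini-Hochberg adjustment over 14165 genes and a threshold of 0.05. Standard errors are the log2 difference divided by the square root of F. DESeq2 1.42.0, limma 3.58.1 on log2(TPM + 1) and log2(TPM + 0.1), other scalings and filters, a replicate block and leaving out each library were the alternatives. With 3 counts as the limit that a count of 0 allows, the floor was 0.0937 to 0.278 CPM per library; floors and ratio intervals cover counting error only. Called genes, genes with a mean of 5 TPM in a group and the 6 other tested genes with the largest difference (25 in all) are given per library, except 2 that are not reported here. The members and lists were chosen with earlier results of these data known. Promoters are from RefSeq (GRCm38.p6).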

Additional observations from a re-analysis of the deposited data

How the results depend on the processing

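Slc4a5 kept its direction in the 13 alternatives and its call in 12, the exception being limma-trend on log2(TPM + 0.1), where the log2 difference was −4.00 (adjusted p = 0.0506). Slc8a1 was called in 10 of the 11 in which it was tested. Its TPM was too low to be tested with limma-trend at either pseudocount. Slc24a3 was called in 6 of 13. The number of transporter genes called higher in LISC was 2, and became 9 with DESeq2, 10 with no filter on low counts, 8 with the replicate block, 1 without ribosomal RNA and mitochondrial genes, 0 with limma-trend at either pseudocount, and 0 to 2 when a library was left out (1 without LISC replicate 1 and 0 without LISC replicate 2). The number called higher in SISC was 1, became 2 with DESeq2, with no filter, with limma-trend on log2(TPM + 1) and with the replicate block, and stayed 1 whichever library was left out. Partner genes went from 0 and 0 (LISC, SISC) to 3 and 1 with DESeq2, 6 and 1 with no filter and 5 and 1 with the replicate block. Over all genes, 206 and 105 became 767 and 384 with DESeq2, 942 and 465 with no filter and 1015 and 524 with the replicate block. Leaving out a library gave 166 to 338 and 79 to 149, and the 338 came without SISC replicate 1. The cause of these changes was not tested.

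The replicate block rests on numbers that the labels do not tie to a shared animal or day. Same-numbered libraries deviated together (correlation 0.648 across genes). Of 282 values recomputed for the 23 genes given per library, 239 stayed on their side of the threshold, 29 passed it, 9 lost it and 5 changed sign. The changes of sign were in genes with no call. When a library was left out, log2 differences ran from −0.45 to 0.14 for Slc12a7, −0.63 to 0.55 for Slc12a9 and −0.61 to 0.0026 for Slc20a2. Genes below the filter, 23 of the 52, had at most 6 counts in any library, so that a difference in them was not detectable at this depth.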
